A study of Mus musculus with 21 samples.

Results

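Expression of 34 genes of peroxisome biogenesis, peroxisomal beta-oxidation and ether lipid synthesis was compared between GFP+ keratinocytes of p16-expressing mice and GFP+ keratinocytes of control mice. The genes were taken by symbol from the 22050 entries of the expression table, and all 34 were found. Of these, 13 encode peroxins and 21 encode enzymes or transporters. Control mice carried K5-rtTA/tet-GFP and p16-expressing mice carried K5-rtTA/tet-GFP/tet-p16, where the keratin 5 promoter drives a doxycycline-dependent activator in basal epidermal and appendage keratinocytes, and tet-p16 encodes human p16, an inhibitor of the cell-cycle kinases CDK4 and CDK6. Both groups had a mixed FVB, C57Bl and 129sv background, and both received doxycycline from 3 weeks of age for 6 months. Cells came from dorsal skin, cells staining for CD140a (fibroblasts), CD45 (immune cells) or CD31 (endothelium) were excluded by sorting, and 80000 or so GFP+ cells of 3 mice made up 1 sample. There were 4 samples in each group.

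Peroxisomes are membrane-bound organelles that shorten fatty acids which mitochondria handle poorly, such as very long-chain and branched-chain species, and that start the synthesis of ether lipids. Their membrane and matrix proteins are made in the cytosol and brought in by peroxins, with Pex3, Pex16 and Pex19 building the membrane, Pex5 and Pex7 carrying matrix cargo, and members of the Pex11 family shaping and dividing the organelle. Beta-oxidation proceeds in turn through acyl-CoA oxidases, which release hydrogen peroxide, bifunctional enzymes and thiolases, and catalase breaks the peroxide down. In skin, the sebaceous gland is known for its many peroxisomes and for making wax esters from fatty alcohols, which fatty acyl-CoA reductases produce.

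The values are normalized read counts, that is, reads of a gene over the size factor of its sample, and 1 read was worth between 0.742 and 1.53 of them. Total reads ranged from 1760953 to 3414362 in control samples and from 2884544 to 3202975 in p16 samples. Among the p16 libraries, p16 4 stood farthest from the others, and replicate 3 of both groups has a library protocol worded differently in the labels. Reads of the human transgene, hsCDKN2A, numbered 1 to 3 per control sample and 2, 13, 18 and 9 in p16 samples 1 to 4, so the sample labelled p16 1 lay within the control range (exact two-sided permutation p = 0.0571). EGFP was lower in p16 samples, at 3555 ± 341 (SD, n = 4) against 5330 ± 809 (SD, n = 4), with a limma adjusted p of 0.0167. Markers of basal keratinocytes were abundant in every sample, with summed values of 23438.1 to 40560.2 in control and 25298.9 to 28933.6 in p16 samples.

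The sequences before RefSeq transcription starts are shown for genes that fell. Acaa1a is added because it and Acaa1b, a pair of paralogous thiolase genes, differed in their change. RefSeq windows of 250 bases before the start (GRCm38.p6) were matched for 28 of the 34 genes, in 33 windows. For Acoxl the RefSeq start, 127854628, lies inside the GENCODE M21 gene span, which begins at 127838876. The same holds for Acaa1a, with 119341294 and 119339676. The windows of Acoxl and Acaa1a thus precede an internal start and not the start of the annotated gene. The stretches below are written 5′ to 3′ on the strand of the gene, leave out bases that GENCODE M21 places in an untranslated or coding exon, and carry CCAAT boxes (CCAAT) and GC boxes (GGGCGG), found on either strand, in capitals. They lie at chr2:127854378-127854627 on the plus strand for Acoxl, chr6:148047166-148047258 on the plus strand for Far2, chr5:8997325-8997396 on the minus strand for Crot, chr9:119157094-119157343 on the minus strand for Acaa1b and chr9:119341160-119341293 on the plus strand for Acaa1a.
Acoxl: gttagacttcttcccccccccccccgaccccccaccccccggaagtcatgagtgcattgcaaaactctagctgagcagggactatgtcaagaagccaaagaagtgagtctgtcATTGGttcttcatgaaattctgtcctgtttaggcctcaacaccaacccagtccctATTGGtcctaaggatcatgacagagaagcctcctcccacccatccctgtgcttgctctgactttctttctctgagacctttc
Far2: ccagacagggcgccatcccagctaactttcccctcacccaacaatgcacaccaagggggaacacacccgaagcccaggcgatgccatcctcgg
Crot: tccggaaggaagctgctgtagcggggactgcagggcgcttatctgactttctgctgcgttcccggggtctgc
Acaa1b: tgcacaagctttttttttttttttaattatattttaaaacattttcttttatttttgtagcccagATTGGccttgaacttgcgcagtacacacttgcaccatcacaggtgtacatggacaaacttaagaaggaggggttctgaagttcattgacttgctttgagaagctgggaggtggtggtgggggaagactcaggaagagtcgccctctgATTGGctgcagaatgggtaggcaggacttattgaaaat
Acaa1a: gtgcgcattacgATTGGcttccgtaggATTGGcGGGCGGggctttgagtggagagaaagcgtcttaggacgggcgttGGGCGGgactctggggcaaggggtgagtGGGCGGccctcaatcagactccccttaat
The Acoxl and Acaa1b stretches each held 2 CCAAT boxes and no GC box, and the Acaa1a stretch held 2 CCAAT boxes and 3 GC boxes. The printed Far2 and Crot stretches held neither box. With the exon bases left out here, the whole window held a GC box for Far2 and both kinds of box for Crot. Both windows of Acox2 lay in annotated untranslated or coding exons and are not printed, and Acox2 also held a CCAAT box there. Across the 33 whole windows, a CCAAT box was found in 15 (45.5%) and a GC box in 20 (60.6%), against 33.8% and 32.7% of all 32851 RefSeq windows of that length. The 33 windows were also richer in G and C, with a median of 58.8% against 52.4% in all windows. The box counts were not adjusted for that. A direct repeat of AGGTCA with any 1 base between the copies, the sequence that PPAR receptors bind with RXR, was found in 0 of the 33 windows and in 0.0335% of all windows, and the single site AGGTCA, which overlaps any such repeat, was found in the windows of Cat, Pex11g and Scp2 and in 14.0% of all windows. These letter matches describe the windows only.

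In p16-expressing cells, 5 of the 34 genes fell and 0 rose. These 5 were Acoxl, Acox2, Far2, Acaa1b and Crot. Acox2 and Acaa1b belong to the beta-oxidation spiral, Acoxl is an oxidase-like protein, Crot passes its products on to carnitine, and Far2 turns acyl-CoA into fatty alcohol. Of the 13 peroxin genes 0 were called by limma, edgeR or DESeq2, and 1, Pex11a, was lower by the unadjusted limma p. The test was limma on a log2 scale (normalized value plus 1) for 12782 genes whose mean reached 1, all 34 included, and a gene was called when its Benjamini-Hochberg adjusted p was under 0.05. By that rule 334 genes were lower (2.61% of those tested) and 159 were higher (1.24%). By counts, 25 of the 34 genes had a log2 fold change below 0 and 9 above 0, with a median of -0.14 beside -0.0027 over all genes, and for the 29 genes not called the median was -0.07. In 8 of the 34 genes every p16 sample lay below every control sample, against 5.63% of all genes, and in 0 every p16 sample lay above, against 4.19%. When p under 0.05 was taken without adjustment, 8 of them were lower and 0 higher, against 8.93% and 7.02% of all genes. By edgeR on the recovered reads, whose filter kept 31 of the 34 genes and not Acaa1b, and by DESeq2, 4 genes were lower, all but Acaa1b, and 0 were higher. In such bulk samples fewer cells of a type and less RNA per cell cannot be told apart.

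**Figure D1:**
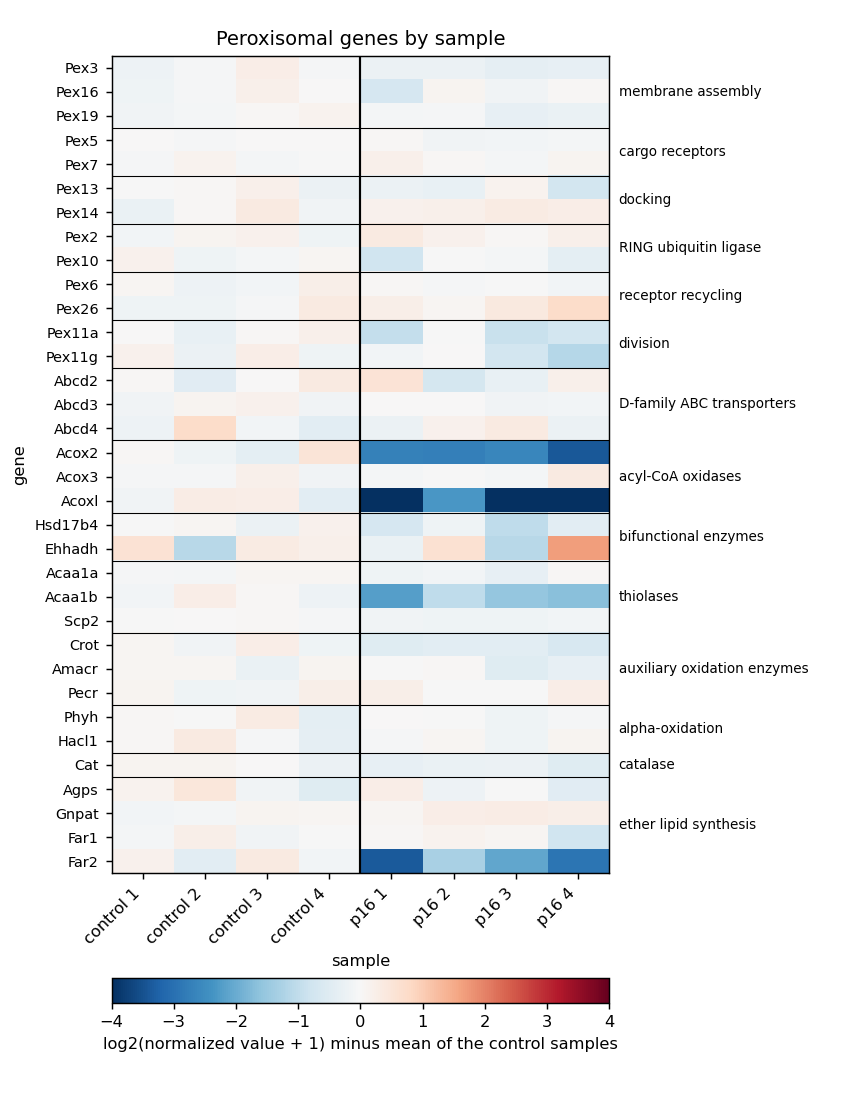
Heat map of the 34 genes (rows, grouped by role) in the 4 control and 4 p16 samples (columns), coloured by log2(normalized value + 1) minus the mean of the control samples, from -4 (blue) to 4 (red). Acox2, Acoxl, Acaa1b and Far2 are blue in all 4 p16 samples, while the peroxin rows stay pale.

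Among the peroxins none was called, and log2 fold changes ran from -0.65 for Pex11a to 0.36 for Pex26. The 3 membrane assembly genes all had values below 0 on the log2 fold change scale, from -0.29 to -0.16. Pex3, the membrane anchor that receives Pex19 with its cargo, measured 77.9, 86.0, 108.6 and 87.1 in control samples and 76.0, 75.0, 69.2 and 71.5 in p16 samples. All p16 values lay below all control values, but by only 1.9 at the closest (exact two-sided permutation p = 0.0286, the smallest that 4 against 4 samples allow), and limma gave an adjusted p of 0.323. Pex16, which helps to place Pex3, had a mean of 93.6 ± 9.89 in control and 85.1 ± 18.9 in p16 samples (SD, n = 4 each), and Pex19, the carrier of membrane proteins, had means of 116 ± 10.4 and 102 ± 9.87 (SD, n = 4 each).

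The import machinery was split in direction. The cargo receptors Pex5 and Pex7 had log2 fold changes of -0.07 and 0.07, with standard errors of 0.12 and 0.10. In the docking complex, Pex13 had -0.28 and Pex14 had 0.24. In the ubiquitin ligase that marks receptors for recycling, Pex2 had 0.19 and Pex10 had -0.32. For recycling itself, Pex6, an ATPase that pulls receptors out, had -0.03, and its membrane anchor Pex26 had 0.36 ± 0.19 (SE), the highest log2 fold change of the 34 genes. The adjusted p of these 8 genes ranged from 0.370 for Pex26 to 0.943 for Pex6, so the differences did not exceed the spread between samples by this test.

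Pex11a, which elongates the peroxisomal membrane before division, had the lowest log2 fold change of the peroxins, -0.65 ± 0.22 (SE). Its values were 49.7, 39.8, 50.1 and 56.5 in control samples and 24.8, 47.6, 25.7 and 28.8 in p16 samples. The other p16 samples lay below all controls and p16 2 lay within the control range, so the groups overlapped (exact two-sided permutation p = 0.0571). The adjusted p was 0.136, and without p16 2 it was 0.0287. Pex11g, another member of the family, had low values, 14.0 ± 2.51 in control and 10.2 ± 3.92 in p16 samples (SD, n = 4 each), and an adjusted p of 0.494.

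The D-family transporters showed no detectable difference. Abcd3, which brings branched-chain and dicarboxylic acyl groups into peroxisomes, measured 257 ± 29.9 in control and 246 ± 15.0 in p16 samples (SD, n = 4 each), a log2 fold change of -0.06 ± 0.11 (SE). Abcd2, a transporter of very long-chain acyl-CoA, had only 3 to 11 reads per sample. Abcd4 is a family member known for vitamin B12 export from lysosomes and not for peroxisomal import. It had a log2 fold change of 0.01 ± 0.27 (SE), and 16.2% of the 50-base windows in its last 500 transcript bases also occurred in other genes, so that its reads could have been split.

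The largest changes were in the acyl-CoA oxidases, the enzymes of the first step. Acox2 (chr14:8225511-8259353, minus strand), which acts on branched-chain acyl-CoA and bile acid intermediates, measured 27.4, 23.1, 20.0 and 38.2 in control samples and 3.2, 3.1, 3.5 and 1.6 in p16 samples. The p16 values were all far below the lowest control value and came from 2 to 4 reads. Acox2 was 9.54-fold lower by the means, with a log2 fold change of -2.86 ± 0.31 (SE) and a limma adjusted p of 0.000118. Acoxl (chr2:127838876-128123873, plus strand), an oxidase-like protein whose reaction is little studied, measured 39.3, 52.6, 51.8 and 32.1 in control samples and 1.6, 7.8, 1.8 and 1.6 in p16 samples. Here p16 2 stood above the other p16 samples, at 10 reads against 2 in each of them, and still lay below every control. Acoxl was 13.7-fold lower by the means, and its log2 fold change of -3.62 ± 0.39 (SE) was the lowest of the 34 genes (limma adjusted p = 0.000111). Both genes were called under all 16 alternatives tried. Apart from Acoxl in p16 2, their p16 reads lay near the limit of detection of 3 reads used here. The size of both folds is therefore uncertain.

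Acox3 did not show this drop. This oxidase, which also takes branched-chain substrates, measured 54.2 ± 5.87 in control and 56.4 ± 8.56 in p16 samples (SD, n = 4 each; adjusted p = 0.924). Acox2 was also set against Acox3 in the same sample, as a log2 ratio with 1 added to each value. The log2 ratio lay between -1.60 and -0.35 in control samples and between -4.75 and -3.54 in p16 samples. Because of the added 1, the scaling of samples does not fully drop out, and the ratio understates differences at low values. The ranges of this ratio did not overlap. It was computed after the values were seen and was not tested.

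**Figure D2:**
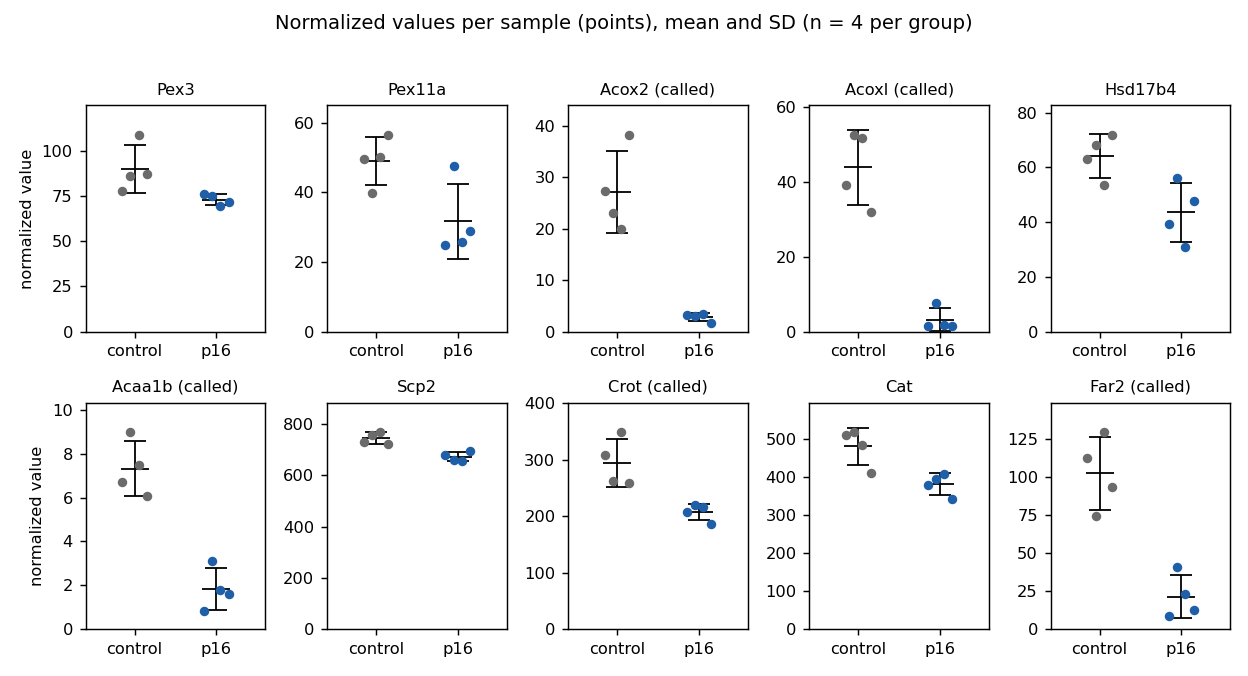
Normalized values (vertical axes, each from 0) of the 10 genes that were called, did not overlap between groups or had an unadjusted p under 0.05, with 1 point a sample and the mean and SD of 4 samples per group. Called genes are marked, and in Acox2, Acoxl and Far2 the p16 points sit far below the control points, while in Pex3, Scp2 and Cat the groups lie close together.

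Bifunctional enzymes carry out the hydration and dehydrogenation that follow. Hsd17b4, the D-bifunctional protein, measured 63.1, 68.0, 53.5 and 71.8 in control samples and 39.2, 56.2, 31.0 and 47.7 in p16 samples. The other p16 values lay below all controls and p16 2 lay above the lowest control, so the groups overlapped (exact two-sided permutation p = 0.0571). The log2 fold change was -0.57 ± 0.19 (SE) with a limma adjusted p of 0.135. Ehhadh, the L-bifunctional protein, was near the limit of detection, with 0 to 7 reads per sample, and a difference was not detectable at this depth.

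Thiolases release acetyl-CoA or propionyl-CoA in the last step. Acaa1b (chr9:119148023-119157093, minus strand), a mouse 3-ketoacyl-CoA thiolase, measured 6.7, 9.0, 7.5 and 6.1 in control samples and 0.8, 3.1, 1.8 and 1.6 in p16 samples. The groups did not overlap, but the values came from 1 to 9 reads per sample. Acaa1b was 4.01-fold lower, with a log2 fold change of -1.61 ± 0.38 (SE) and a limma adjusted p of 0.0269. This call was lost without p16 1 (adjusted p = 0.0915), without p16 3 (0.0600), without control 1 (0.0739), control 2 (0.0733) or control 3 (0.0738), and under DESeq2 (0.107). Its paralog Acaa1a (chr9:119339676-119350299, plus strand) measured 130 ± 7.43 in control and 118 ± 12.4 in p16 samples (SD, n = 4 each; adjusted p = 0.620). In the last 500 bases of their transcripts these paralogs aligned over 451 positions, of which 86.7% were identical. Of the 50-base windows of Acaa1b in its last 500 bases, 38.8% were also in Acaa1a, so reads of Acaa1b are uncertain. Exons of Dlec1 on the opposite strand also overlap Acaa1b, and Dlec1 measured 0 to 0.9 in all samples. With 1 added to each value, the log2 ratio of Acaa1b to Acaa1a lay between -4.27 and -3.62 in control samples. In p16 samples it lay between -6.00 and -4.90, and at so few reads the added 1 narrows the difference. This ratio, too, was computed after the values were seen and was not tested.

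Scp2 encodes a thiolase for branched chains and a sterol carrier protein from the same gene. It measured 729.2, 759.7, 769.2 and 722.7 in control samples and 679.6, 661.3, 656.1 and 693.9 in p16 samples. All p16 values were lower (exact two-sided permutation p = 0.0286), but the log2 fold change was only -0.15 ± 0.08 (SE), with an adjusted p of 0.407. Of the 50-base windows in the last 500 bases of Scp2, 73.2% were shared with the pseudogene Scp2-ps2.

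Of the auxiliary enzymes, Crot was called. Crot (chr5:8966033-8997324, minus strand), the octanoyltransferase that passes shortened acyl groups on to carnitine for export, measured 307.9, 263.1, 349.1 and 258.2 in control samples and 207.1, 219.4, 216.3 and 186.6 in p16 samples. All p16 values lay below the lowest control. Crot was 1.42-fold lower, with a log2 fold change of -0.50 ± 0.12 (SE) and a limma adjusted p of 0.0258. The call was lost when any of control 1 (adjusted p = 0.0897), control 3 (0.0840), p16 1 (0.0790) or p16 3 (0.0510) was left out and when samples were scaled to the same total (0.0604), with the direction unchanged. Its exons overlap the short gene models Gm27941 and Gm37153. Crat, the acetyltransferase of carnitine, which is not among the 34 genes, had means of 74.8 ± 5.97 and 54.3 ± 7.36 (SD, n = 4 each) and an adjusted p of 0.115. Amacr, the racemase that readies branched chains, and Pecr, an enoyl-CoA reductase, had log2 fold changes of -0.19 and 0.12 and were not called. The alpha-oxidation enzymes Phyh and Hacl1, which remove a single carbon from phytanic acid, had log2 fold changes of -0.05 and -0.01, with standard errors of 0.14 and 0.23.

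Catalase was lower in all p16 samples by a small margin and was not called. Cat measured 511.9, 518.5, 483.6 and 411.0 in control samples and 379.0, 395.1, 408.8 and 342.0 in p16 samples. The highest p16 value lay 2.2 below the lowest control value (exact two-sided permutation p = 0.0286). The log2 fold change was -0.33 ± 0.10 (SE), with a limma adjusted p of 0.0964, and of 0.0460 without control 4.

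Of the 4 ether lipid genes, Far2 alone was called. Far2 (chr6:148047259-148182758, plus strand), a fatty acyl-CoA reductase, measured 112.8, 74.4, 129.5 and 93.2 in control samples and 8.8, 40.6, 23.1 and 12.3 in p16 samples. The highest p16 value, in p16 2, was well below the lowest control value. Far2 was 4.83-fold lower, with a log2 fold change of -2.41 ± 0.35 (SE) and a limma adjusted p of 0.00137, and it was called under all 16 alternatives. Its exons overlap those of Ergic2 and the antisense gene Far2os2 on the opposite strand, and Ergic2 had means of 177 ± 8.43 and 153 ± 19.4 (SD, n = 4 each; adjusted p = 0.398). Far1, the reductase that supplies alcohol for ether lipids in many tissues, measured 122 ± 14.0 and 114 ± 29.3 (SD, n = 4 each; adjusted p = 0.802). With 1 added to each value, the log2 ratio of Far2 to Far1 lay between -0.92 and 0.25 in control samples. In p16 samples it lay between -3.67 and -1.68, and these ranges did not overlap. This ratio, too, was computed after the values were seen and was not tested. The enzymes that begin ether lipid synthesis inside the peroxisome had values in opposite directions, with a log2 fold change of 0.22 ± 0.12 (SE) for Gnpat and -0.11 ± 0.23 (SE) for Agps.

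**Figure D3:**
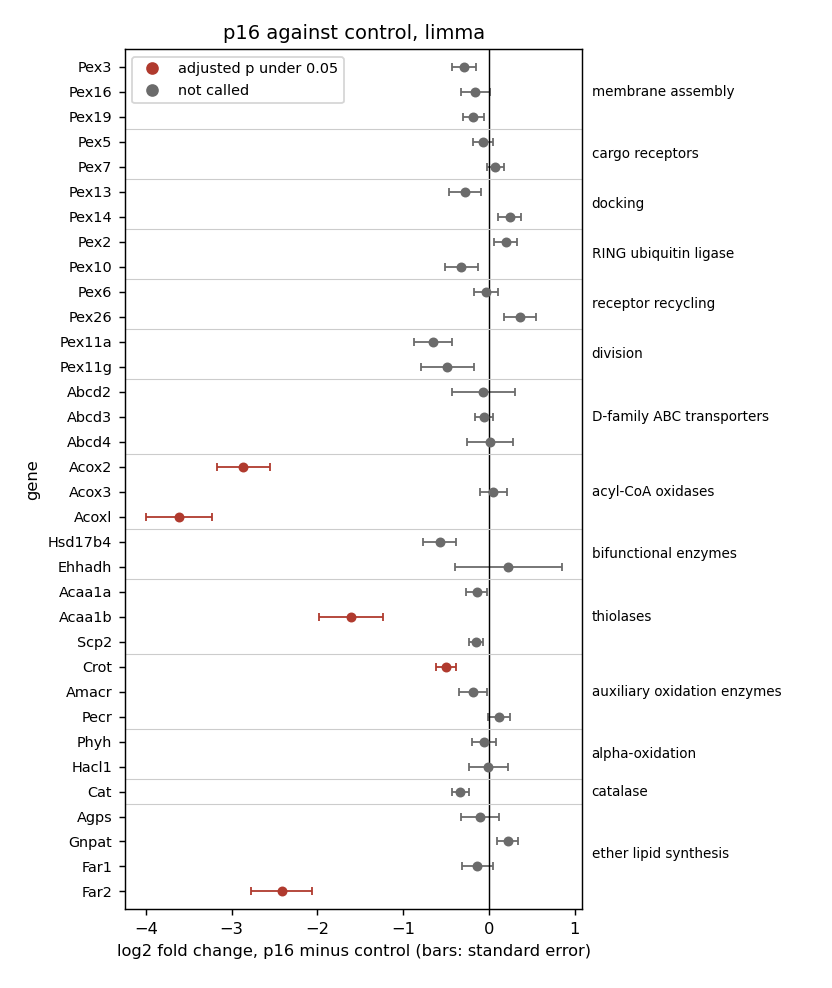
Log2 fold change of p16 against control samples (horizontal axis, limma, bars show the standard error) for each of the 34 genes (vertical axis, grouped by role), with red points for adjusted p under 0.05. The 5 red points lie at -3.62 (Acoxl), -2.86 (Acox2), -2.41 (Far2), -1.61 (Acaa1b) and -0.50 (Crot), and the 13 peroxins lie between -0.65 and 0.36.

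More genes of the organelle and of related pathways were set beside these. Over all genes tested, 2.61% were called lower and 1.24% higher by limma, and 8.93% and 7.02% by the unadjusted p. Of 52 other peroxisomal genes, 40 had a mean value of at least 1, 2 were called lower and 0 higher by limma, 7 lower and 1 higher by the unadjusted p, and the median log2 fold change was -0.08. Tmem135, a membrane protein of peroxisomes, fell from 84.7 ± 9.06 to 49.0 ± 5.41 (SD, n = 4 each), a log2 fold change of -0.78 ± 0.15 (SE; adjusted p = 0.00846). Pxmp2, a pore-forming membrane protein, measured 21.9 ± 2.24 and 10.7 ± 2.47 (SD, n = 4 each; log2 fold change -0.99, adjusted p = 0.0379), a call that was lost in 11 of 16 alternatives, among them each of 7 samples left out in turn. Of 21 mitochondrial fatty acid oxidation genes tested, 1 was called lower and 0 higher by limma, with 4 lower and 1 higher by the unadjusted p, and the median was -0.10. The gene called was Decr1, the reductase for unsaturated chains, at 153 ± 30.4 in control and 92.5 ± 9.67 in p16 samples (SD, n = 4 each; log2 fold change -0.71, adjusted p = 0.0199). The call for Decr1 was lost without control 1, control 2, control 3 or p16 1, where its adjusted p reached 0.0741.

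Nuclear receptors of the PPAR family drive many genes of peroxisomal oxidation in other tissues. The shares of all genes to compare with were again 2.61% lower and 1.24% higher by limma, and 8.93% and 7.02% by the unadjusted p. Of 11 genes for PPAR receptors and partners tested, 1 was called lower and 0 higher by limma, with 2 lower and 1 higher by the unadjusted p, and the median log2 fold change was 0.02. Pparg, the receptor known from fat cells and sebocytes, measured 55.6, 44.9, 45.9 and 38.2 in control samples and 3.2, 21.9, 10.6 and 3.3 in p16 samples. It was 4.73-fold lower by the means, without overlap and with p16 2 again the highest p16 sample (log2 fold change -2.49 ± 0.44 (SE), limma adjusted p = 0.00545). Ppara, the receptor known from liver, measured 19.0 ± 7.47 and 15.3 ± 2.88, and Ppard measured 104 ± 15.1 and 106 ± 13.3 (SD, n = 4 each). Of 9 other ether lipid genes, which act in later steps of synthesis or, as Agmo, Tmem86a and Tmem86b do, in breakdown, 1 was called lower, 0 higher by limma, 2 lower and 0 higher by the unadjusted p, and the median was -0.18. That gene was Lpcat3, which adds polyunsaturated chains to phospholipids, at 239 ± 18.3 in control and 154 ± 21.8 in p16 samples (SD, n = 4 each; log2 fold change -0.64, adjusted p = 0.00710). Without replicate 3 of both groups its adjusted p was 0.0596.

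**Figure D4:**
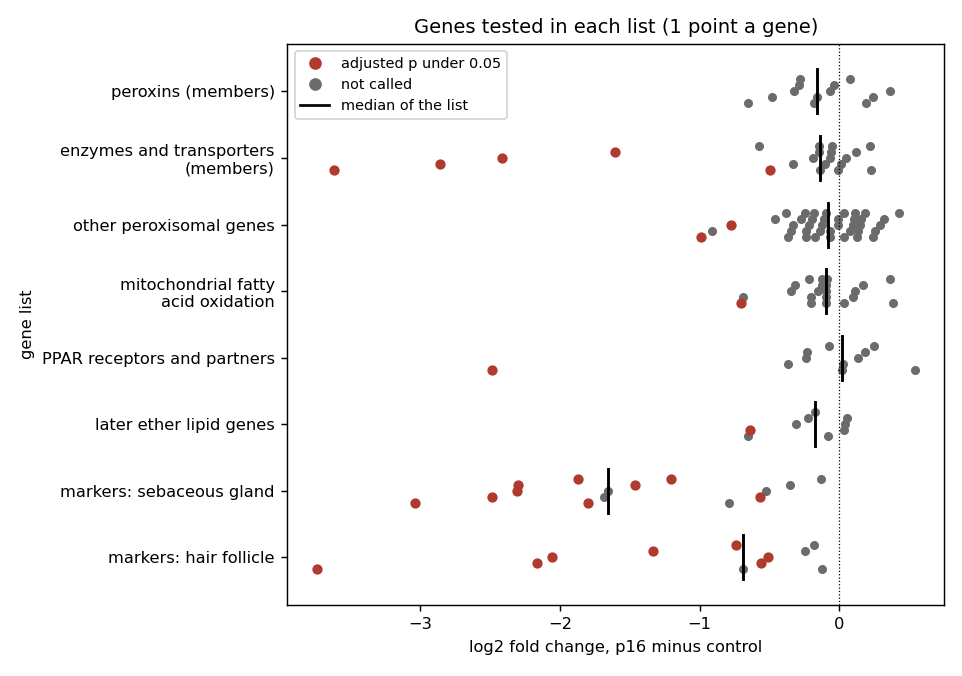
Log2 fold change of p16 against control samples (horizontal axis) for every gene tested in each list (vertical axis, 1 point a gene), with red for adjusted p under 0.05 and a black bar for the median of the list. The 6 upper lists have medians between -0.18 and 0.02 with a few genes far to the left, while the sebaceous gland markers have a median of -1.66 and the hair follicle markers one of -0.69.

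Markers of sebaceous gland cells moved in the same direction as the genes that fell. Of 15 sebaceous gland markers tested, 9 were called lower and 0 higher by limma, with 12 lower and 0 higher by the unadjusted p, and the median log2 fold change was -1.66. Among all genes tested, 2.61% were called lower and 8.93% were lower by the unadjusted p. The marker list shares Pparg with the receptors above. The summed value of all 16 markers was 2656.7 to 3201.2 in control samples and 1347.3 to 1776.3 in p16 samples, and Mc5r was at 0 in every p16 sample. Scd1, a desaturase abundant in sebocytes, fell from 768 ± 63.2 to 279.9 ± 45.5, and Cidea, a lipid droplet protein, fell from 77.6 ± 23.7 to 9.88 ± 7.68 (SD, n = 4 each). Sample p16 2 was the highest p16 sample for 4 of the 5 peroxisomal genes called and for 9 of the 9 sebaceous gland markers called. It was also the highest for 13 of the 34 peroxisomal genes (38.2%) and for 24.1% of all genes tested. As a share of the control mean, the median over the 5 peroxisomal genes was 10.9%, 39.6%, 22.5% and 12.0% in p16 samples 1 to 4, and the median over the 9 markers was 13.9%, 44.5%, 23.0% and 18.7%. The part of this shift in the peroxisomal genes was not tested.

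**Figure D5:**
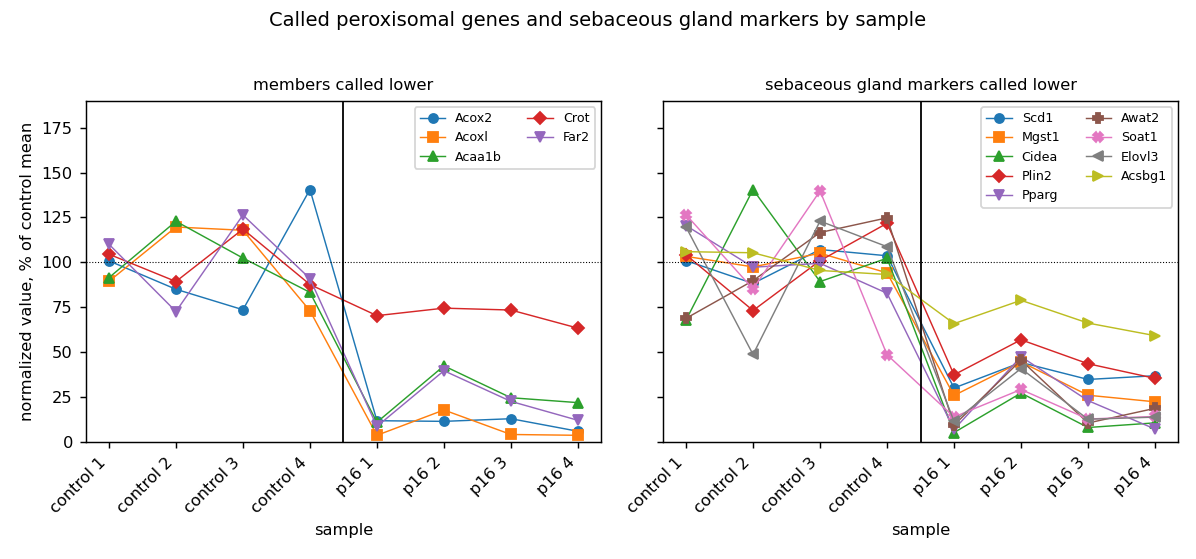
Normalized value as a percent of the control mean (vertical axis) in each sample (horizontal axis) for the 5 peroxisomal genes called lower (left) and the 9 sebaceous gland markers called lower (right), with 1 line a gene. In both panels p16 2 is the highest of the p16 samples for most genes, and Crot and Acsbg1 stay closest to the control level.

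Markers of other cells also moved with the groups. The share of all genes called by limma was 2.61% lower and 1.24% higher. Of 11 hair follicle markers, 7 were called lower and 0 higher by limma (8 lower and 0 higher by the unadjusted p), and their summed value was 21918.8 to 31961.6 in control and 18789.8 to 21019.3 in p16 samples. Of the 6 melanocyte markers tested, 2 were called lower, with sums of 131.0 to 529.7 and 51.7 to 142.9. For fat cells, Adipoq, Cfd, Fabp4 and Lep were at 0 in every sample, and 1 of the 8 markers passed the filter on low values. That gene was Lpl, a lipase that other cells also make, which fell from 162 ± 22.7 to 62.0 ± 30.5 (SD, n = 4 each; adjusted p = 0.00710) and made up nearly all of the summed value, 137.4 to 187.4 in control and 28.8 to 101.5 in p16 samples. Of the 5 fibroblast markers tested, 1 was called higher and 0 lower by limma. That gene was Dcn, at 2.6 to 10.7 in control and 36.2 to 203.0 in p16 samples (adjusted p = 0.000233), and it made up most of the summed value of the list in p16 samples, which was 42.8 to 220.7 against 10.8 to 27.3 in control samples. Col1a2 was 4.2 to 17.8 in control and 1.6 to 3.3 in p16 samples (adjusted p = 0.0571), and Lum was at 0. Of the 4 T cell markers tested, 0 were called by limma (1 lower and 1 higher by the unadjusted p), and the summed value, 589.7 to 809.8 in control and 686.0 to 2917.2 in p16 samples, was nearly all Thy1, which other cells also express. Cd3d was 7.6 to 15.0 in control and 1.8 to 7.4 in p16 samples. Markers of Langerhans and myeloid cells summed to 117.7 to 128.4 and 116.1 to 162.4, with Lyz2 at 0, and those of endothelial cells to 1.3 to 5.0 and 3.1 to 6.4, with Cdh5, Cldn5, Emcn and Kdr at 0. Among 7 markers of differentiated interfollicular keratinocytes, Lor was called higher (91.8 ± 45.1 in control and 303 ± 137 in p16 samples), Ivl was called lower (48.2 ± 7.08 and 23.4 ± 7.88) and Sbsn was called lower (1052 ± 335 and 536 ± 27.6; SD, n = 4 each), with adjusted p of 0.00951, 0.0215 and 0.00905, and the other 4 were not called. The part of these cells in the peroxisomal results was not tested.

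Leaving out a library changed the count of genes called but not its direction. Without p16 1, the sample with transgene reads in the control range, 3 of the 34 genes were lower, which were Acox2, Acoxl and Far2, and the same 3 were lower without replicate 3 of both groups. Without p16 4, the same 5 genes were lower as with all samples. Without p16 2, Pex11a was added to the 5, and without control 4, Cat was added.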

How the data were processed

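Gene expression was measured by 3′ mRNA-seq in 8 of the 21 samples that the labels list (4 control and 4 p16, GFP+ cells of the 6-month induction), and the other 13 samples were not analysed here. Samples were grouped by their labels. Per the labels and the study's methods, the authors used Cutadapt for trimming, TopHat2 for alignment to GRCm38, HTSeq for counting and DESeq2 for scaling. Each deposited signal value is a read count over the size factor of its sample, kept to 1 decimal. Use of molecular identifiers, strand in counting and the annotation are not given in the sources used here, so reads of overlapping or near-identical genes could be misassigned. The authors' columns of group means, test statistics and p-values were not used.

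Dividing by the value of 1 read gave whole reads for 100% of values, to the rounding of the file. Genes with a mean of at least 1 were tested with limma 3.58.1 (eBayes with trend, R 4.3.3) on log2(value + 1), with Benjamini-Hochberg adjustment over all 12782 genes and without a replicate term. A fold change on this scale understates that of genes with low values. Single genes were also tested by an exact two-sided permutation test (scipy 1.17.1). Alternatives were a pseudocount of 0.1, other filters, scaling to the same total, a replicate block, leaving samples out, and edgeR 4.0.16 or DESeq2 1.42.0 on recovered reads. The scripts were tested on simulated data. The 34 genes and the other lists were chosen with earlier results of these data known. Values in every sample are given for genes called, not overlapping between groups or with an unadjusted p under 0.05, and the others by means or counts. Symbols Selenoi, Peds1 and Trdc were not matched under those names. Per the study's methods, the 4 samples of each group came from 3 experiments, with both groups made up of siblings raised together. The labels do not say which sample came from which experiment, so experiment was not a term in the fit and p-values measure the spread between these samples. Transcripts, coordinates and exons are from GENCODE M21 (GRCm38). Limits of detection cover counting error only. Some genes of the lists are counted but not reported here by name.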

Additional observations from a re-analysis of the deposited data

Results flagged for a closer look

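In 4 of the 68 groups of 4 values (34 genes in control and in p16 samples), 1 sample stood apart from the other 3 by more of the range than Dixon's test allows at the 95% level, and chance alone gives about 1 such group in 20. Acoxl was 7.8 in p16 2 and 1.6 to 1.8 in the other p16 samples. Acox3 was 69.1 in p16 4 and 51.2 to 53.9 in the other p16 samples. Far1 was 69.9 in p16 4, the lowest of its group, whose highest value was 132.7. Amacr was 56.8 in control 3, the lowest of its group, whose highest value was 73.3. Of these genes Acoxl alone was called, and it was called with and without p16 2.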

How the results depend on the processing

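The fall of Acox2, Acoxl, Far2, Pparg and Tmem135 was called under all 16 alternatives, and no value changed sign. The count of the 34 genes called lower, 5, was 3 without replicate 3 of both groups, 8 at an unadjusted p under 0.05 and 3 to 6 with a sample left out, and 0 were called higher throughout. Acaa1b was called in 6 of the 14 alternatives that tested it (highest adjusted p 0.133, without replicate 3 of both groups) and Crot in 10 of 16 (highest 0.135, in the same setting). Deviations of same-numbered samples had correlations of 0.0549, 0.0044, 0.0463 and 0.0827. Those of differently numbered samples ran from -0.0997 to 0.0580. The correlations were weak and the numbers were not taken as pairs, but they cannot settle whether samples were paired. With the replicate block the same 5 genes were called. Over all genes, 392 were then lower and 216 higher, against 334 lower and 159 higher without it. Other peroxisomal genes called lower, 2, were 1 without a filter, with the replicate block, without replicate 3 of both groups and with DESeq2, 7 at an unadjusted p (1 higher) and 1 to 2 with a sample left out. Mitochondrial genes called lower, 1, were 3 with the replicate block, 0 without replicate 3 of both groups, 2 with DESeq2, 4 at an unadjusted p (1 higher) and 0 to 2 with a sample left out. Of the PPAR list, 2 were lower at an unadjusted p, and 1 was higher with the same total, the replicate block, DESeq2 and the unadjusted p, and 0 to 1 with a sample left out. Of the later ether lipid genes, 0 were lower without replicate 3 of both groups and 2 at an unadjusted p. Over all genes, 157 were lower and 66 higher without replicate 3 of both groups, and 177 to 343 lower and 69 to 196 higher with a sample left out. The cause of these moves was not tested. At this depth the values of Acaa1b, Ehhadh and Abcd2 rest on 11 reads or fewer per sample. In p16 samples those of Acoxl and Acox2 rest on at most 10 and 4 reads.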
